A study of Mus musculus with 9 samples.

Results

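The 8 genes described here encode the intermediate filament proteins of neurons, neural progenitors and astrocytes: Nefl, Nefm, Nefh, Ina, Prph, Nes, Vim and Gfap. They were taken by symbol from a table of 24100 mouse genes, and all 8 were found and had enough counts to be tested, as had 14761 genes in all. Poly(A) RNA was sequenced from neural cells derived in culture from mouse embryonic stem cells that carried a stable PiggyBac transposon transgene for histone H4 with an HA epitope tag. Histone H4 is a core protein of the nucleosome. The tagged histone had lysine 91 replaced by arginine in the H4K91R group and by glutamine in the H4K91Q group, and was wild type in the H4WT group, so all 3 groups carried a transgene. There were 3 libraries per group, and the descriptions of all 9 carry the tag 4Ddif, which the labels do not explain. The promoter of the transgene, whether a line is 1 clone, and whether replicates are separate differentiations are not labelled, so p-values measure only the spread between these libraries. Total counts ran from 8970553 to 28887501 per library. Levels are given in CPM, a gene's counts relative to its library's total, which was adjusted by the trimmed mean of M values (TMM). Neuron markers summed to at least 246 CPM in every library, and the cultures also held mesenchymal transcripts such as Col3a1, a collagen gene, at 3733 CPM in H4K91R, 3373 CPM in H4K91Q and 2846 CPM in H4WT on average.

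Intermediate filament proteins share a central coiled-coil rod and polymerise into rope-like filaments that give cells mechanical strength. The neurofilament light, medium and heavy chains (Nefl, Nefm and Nefh) assemble with each other and with alpha-internexin (Ina) or peripherin (Prph) into neurofilaments, which fill axons and set their calibre. Alpha-internexin appears early in developing central neurons, while the heavy chain is a late product of maturing axons. Dividing neural progenitors hold vimentin (Vim) and nestin (Nes) instead, and nestin needs a partner such as vimentin to form filaments. Vimentin is also the main filament protein of fibroblasts and other mesenchymal cells. Glial fibrillary acidic protein (Gfap) marks mature astrocytes.

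The sequences just upstream of 3 of the genes are printed. Ina and Vim showed the 2 differences shared by both mutants. Prph differed between the mutants, whose means lay on opposite sides of that of H4WT. Both mutants overlapped H4WT in Prph, and neither passed the test against it. The sequences come from RefSeq (GRCm38.p6), which gave a promoter window for 5 of the 8 genes. For Ina the 250 bases before the annotated start are shown, and for Vim and Prph the 30 bases that end 11 bases before it. Each reads 5′ to 3′ on the gene's own strand and is placed by the start that RefSeq's promoter table uses, which for Prph is that of the coding transcripts at 99055174. The 250 bases before the Vim start overlap exons of the GENCODE transcripts Vim-201 and Vim-206. Whether the printed 30 bases do was not checked. Capitals mark matches to 7 motifs searched on both strands over 250 bases.
Ina, chr19:47014431-47014680, + strand: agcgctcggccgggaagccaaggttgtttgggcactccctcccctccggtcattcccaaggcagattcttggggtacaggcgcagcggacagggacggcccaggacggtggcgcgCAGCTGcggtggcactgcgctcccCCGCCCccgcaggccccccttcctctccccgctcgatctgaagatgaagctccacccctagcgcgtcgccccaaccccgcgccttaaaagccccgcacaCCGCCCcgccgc
Vim, chr2:13574271-13574300, + strand: aacagtgtTATAAAagcagcgcccttggcg
Prph, chr15:99055134-99055163, + strand: ccgcagggcTATAAAgCCGCCCcgcatcgg
The Ina window held the GC box letters GGGCGG on the reverse strand 111 and 12 bases before the start, which read as CCGCCC here, and the E-box CAGCTG 135 bases before it. The Vim window held TATAAA 32 bases before the start and CCAAT at 196 and 94 bases. Prph had TATAAA at 31 bases and a GC box at 24 bases. Nes had GC boxes at 73 and 62 bases, and the Gfap window had no match. Of 32851 RefSeq windows of this length, 12.4% held TATAAA, 33.8% CCAAT, 32.7% GGGCGG and 13.0% CAGCTG. The other motifs searched were CAGATG, held by 14.4% of windows, TGANTCA, held by 6.75%, and TGACGTCA, held by 1.55%. None of these 3 stood in any of the 5 windows. A match is a run of letters and was not tested as a binding site.

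Ina rose several-fold in both mutants, while the neurofilament chains Nefl and Nefh did not pass the test in either and Nefm passed it only in H4K91Q, with a small decrease. Vim fell in both mutants, and Nes fell in H4K91Q. In H4K91R against H4WT, 1 of the 8 genes rose, where 20.9% of all tested genes did, and 1 fell, where 25.1% did (edgeR quasi-likelihood test, Benjamini-Hochberg adjusted p below 0.05). In H4K91Q against H4WT, 1 rose, against a background of 22.5%, and 3 fell, against 23.8%. Between H4K91Q and H4K91R, 1 was higher in H4K91Q, against 2.37% of all genes, and 1 was lower, against 2.78%. A joint test over the 3 groups called Ina, Vim, Nes and Prph, 4 of 8, where it called 50.6% of all genes. The share of the 8 genes that rose was below that of all genes in both mutants. The share that fell was below it in H4K91R and above it in H4K91Q. Each of these shares rests on 1 or 3 genes, too few to set the 8 genes apart from all genes. Of the 3 that fell in H4K91Q, Nefm kept its call in only 4 of 18 alternative analyses. The median log2 difference of the 8 genes was -0.10 in H4K91R and 0.05 in H4K91Q, beside -0.03 in H4K91R and 0.01 in H4K91Q over all genes tested. Scaling by library size alone, without TMM, moved the median of all genes up by 0.18 in H4K91R and 0.17 in H4K91Q. It gave 5031 genes up and 2013 down in H4K91R, against 3092 and 3705 with TMM, and 5557 up and 2069 down in H4K91Q, against 3314 and 3516.

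**Figure D1:**
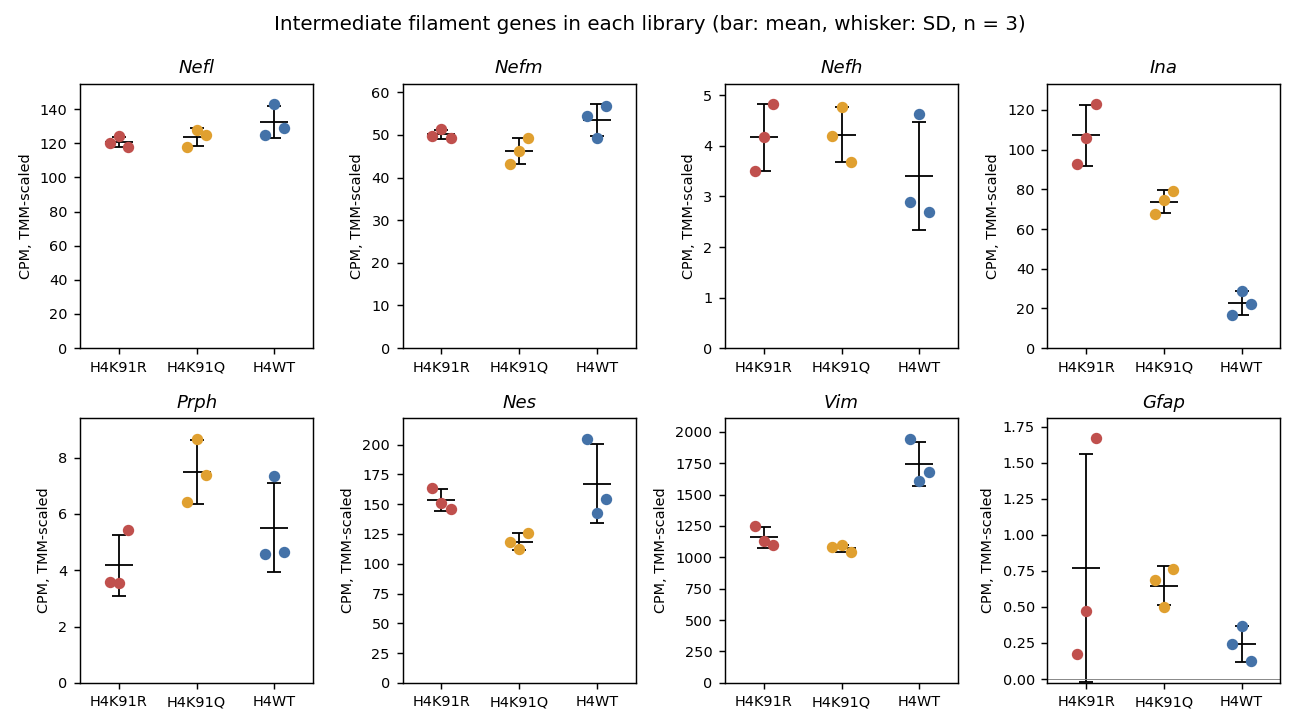
Level of each of the 8 genes in CPM (TMM-scaled, linear axes) in the 3 libraries of H4K91R, H4K91Q and H4WT; points are libraries, bars means and whiskers SDs. Ina stands at 16.5 to 28.7 CPM in H4WT and at 67.4 CPM or more in every mutant library, while Nefl lies between 118 and 143 CPM in all 9.

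**Figure D2:**
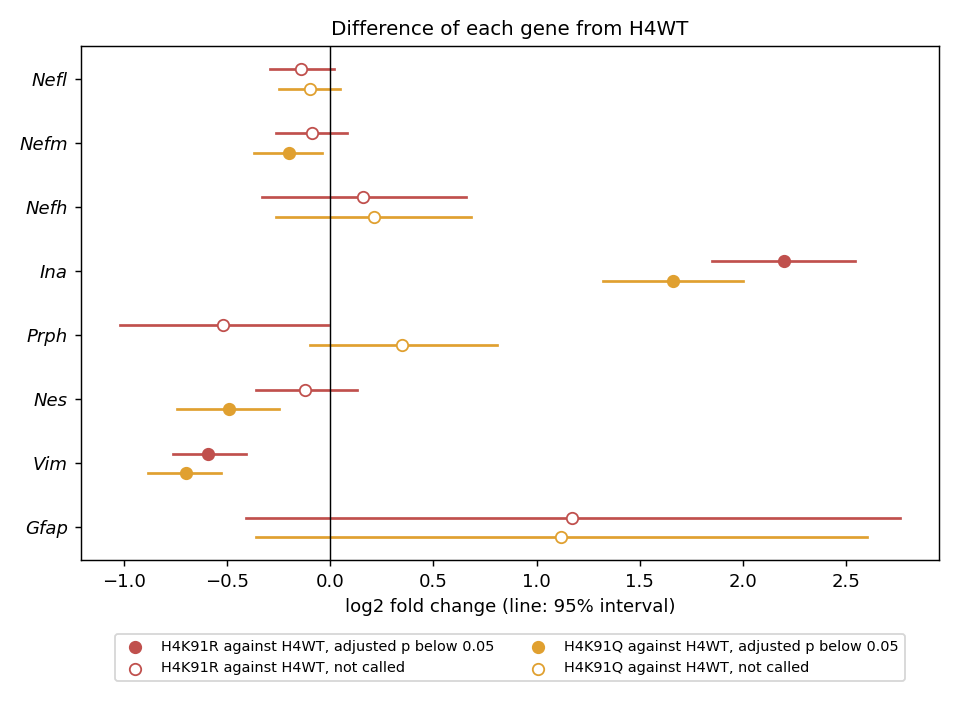
Log2 fold change of each gene in H4K91R (red) and H4K91Q (yellow) against H4WT; lines are 95% intervals and filled points passed the test at an adjusted p below 0.05. Only Ina lies far to the right with a short interval, and the interval of Gfap is the widest.

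Neither mutant moved Nefl, the light chain, past the test. Nefl (Entrez 18039) lies on the + strand of chromosome 14 at 68083863 to 68089095 (GRCm38) and has 4 exons. Its level was 120.2, 124 and 118 CPM in H4K91R libraries, 118, 128 and 125 CPM in H4K91Q libraries and 125, 143 and 129 CPM in H4WT libraries. Every H4K91R library lay just below every H4WT library, and H4K91Q overlapped both. The log2 difference from H4WT was -0.14 ± 0.07 in H4K91R (± SE, as for all log2 differences, n = 3 libraries per group, edgeR adjusted p = 0.13) and -0.10 ± 0.069 in H4K91Q (edgeR adjusted p = 0.249). The 95% intervals, -0.29 to 0.02 in H4K91R and -0.25 to 0.05 in H4K91Q, leave out a change of the size seen for Ina. With library size scaling both signs turned, to 0.05 in H4K91R and 0.07 in H4K91Q.

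Nefm (Entrez 18040), the medium chain, is a neighbour of Nefl on the same chromosome, at 68119545 to 68125004 on the - strand in RefSeq, with 30449 bases between the genes. It measured 49.8, 51.3 and 49.4 CPM in H4K91R libraries, 43.2, 46.3 and 49.4 CPM in H4K91Q libraries and 54.5, 49.4 and 56.7 CPM in H4WT libraries. H4K91Q libraries were the lowest, with their highest value level with the lowest of H4WT after rounding. In H4K91Q Nefm fell by 0.20 on the log2 scale (SE 0.078, 95% interval -0.37 to -0.04, edgeR adjusted p = 0.0472). That call held in 4 of 18 alternative analyses. Leaving out any 1 library other than H4K91Q replicate 3 or H4WT replicate 2 ended it, at adjusted p values between 0.0531 and 0.176, and adding the replicate number as a block gave an edgeR adjusted p of 0.0592. In H4K91R the log2 difference was -0.09 ± 0.079 (edgeR adjusted p = 0.402), with an interval from -0.26 to 0.08, and library size scaling gave 0.10.

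A GENCODE transcript of Nefm, Nefm-202, extends to an exon that overlaps Nefl on the opposite strand by 1108 bases, 32.8% of the exon bases of Nefl. The strand setting behind the counts is not given in the sources used here, so reads from that stretch cannot be told apart between the genes. Nefh (Entrez 380684, chromosome 11, 4938754 to 4948064), the heavy chain, was scarce, with 22 to 125 counts per library. Its level was 3.51, 4.17 and 4.83 CPM in H4K91R libraries, 4.20, 4.78 and 3.69 CPM in H4K91Q libraries and 2.89, 4.63 and 2.69 CPM in H4WT libraries. All 3 groups overlapped. The log2 difference from H4WT was 0.16 in H4K91R (95% interval -0.33 to 0.66, edgeR adjusted p = 0.593) and 0.21 in H4K91Q (-0.26 to 0.68, edgeR adjusted p = 0.46), so a change of up to 1.58-fold or 1.6-fold upward lies within the intervals. Without H4WT replicate 2, the highest of its group, the log2 difference was 0.56 in H4K91R (edgeR adjusted p = 0.0894) and 0.60 in H4K91Q (0.0644).

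Among the filament genes that passed the test, Ina changed most. Ina (Entrez 226180) lies on chromosome 19 at 47014681 to 47025327, + strand, with 3 exons. It measured 92.6, 106 and 123 CPM in H4K91R libraries, 67.4, 74.8 and 79.1 CPM in H4K91Q libraries and 16.5, 28.7 and 22.4 CPM in H4WT libraries. The 3 groups did not overlap, with H4K91R highest and H4WT lowest. The level was 4.59-fold higher in H4K91R than in H4WT (95% interval 3.62 to 5.83, log2 2.20 ± 0.16, edgeR adjusted p = 3.47e-07). In H4K91Q it was 3.16-fold higher than in H4WT (2.49 to 4.00, log2 1.66 ± 0.16, edgeR adjusted p = 3.72e-06). Both calls held in all 18 alternatives, with log2 values of 2.04 to 2.47 in H4K91R and 1.5 to 1.92 in H4K91Q.

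Ina was lower in H4K91Q than in H4K91R, at a ratio of 0.688 (95% interval 0.555 to 0.854, log2 -0.54 ± 0.14, edgeR adjusted p = 0.0492). This call lay close to the threshold and held in 11 of 18 alternatives, among them leaving out H4K91R replicate 1, H4WT replicate 1 or H4WT replicate 2. Leaving out any other library ended it, at adjusted p values from 0.055 to 0.174, with log2 values of -0.59 to -0.43. A transcript of Nt5c2, a nucleotidase gene on the opposite strand, overlaps 456 exon bases of Ina, 14.1% of them, and the same limit on strand applies. Nt5c2 averaged 44.3 CPM in H4K91R, 46.1 CPM in H4K91Q and 49.4 CPM in H4WT, and did not pass the test in either mutant (log2 -0.16 in H4K91R, edgeR adjusted p = 0.113, and -0.10 in H4K91Q, edgeR adjusted p = 0.299).

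Because the chains assemble together, the ratio of Ina to Nefl was taken within each library, a comparison chosen after the values were seen. Ina divided by Nefl, both in CPM, was 0.77 to 1.05 in H4K91R, 0.572 to 0.633 in H4K91Q and 0.131 to 0.201 in H4WT. The ratio was higher in every mutant library than in any H4WT library, by 2.41 on the log2 scale in H4K91R and by 1.84 in H4K91Q. The exact two-sided permutation p was 0.1 for each, the smallest that 3 libraries against 3 allow, and 0.12 after Benjamini-Hochberg adjustment over 18 such ratio tests. The ratio of Nefm to Nefl was 0.412 to 0.42 in H4K91R and 0.361 to 0.395 in H4K91Q, both inside the 0.347 to 0.439 of H4WT.

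**Figure D3:**
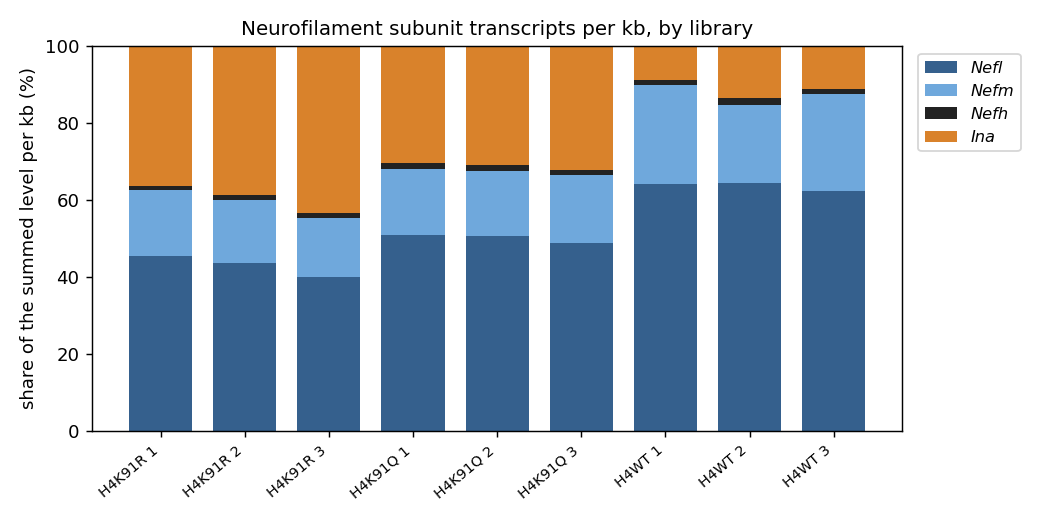
Share of Nefl, Nefm, Nefh and Ina in the summed CPM per kb of these 4 genes, in percent, 1 bar per library, with length taken from the longest transcript. The Ina share is 36.4% to 43.4% in H4K91R, 30.4% to 32.2% in H4K91Q and 8.84% to 13.5% in H4WT.

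Levels of different genes can be compared only per length, and the bar plot of neurofilament shares uses CPM divided by the kb of the longest coding transcript (3380 bases for Nefl, 3680 for Nefm, 3994 for Nefh and 3240 for Ina). On that scale Nefl took 39.9% to 45.3% of the sum of the 4 chains in H4K91R, 48.8% to 51.0% in H4K91Q and 62.4% to 64.3% in H4WT. The longest Nefm transcript is Nefm-202, which overlaps Nefl. With it Nefm took 15.3% to 17.2% in H4K91R, 16.8% to 17.7% in H4K91Q and 20.4% to 25.7% in H4WT. With the union of annotated exons Nefm took 10.3% to 11.7% in H4K91R, 11.4% to 12.1% in H4K91Q and 14.0% to 18.0% in H4WT. With the longest transcripts Nefh stayed at 1.10% to 1.76% in all 9 libraries. Over all 8 genes Vim was the most abundant in every group, at 529 ± 36.9 CPM per kb in H4K91R, 489 ± 13.0 in H4K91Q and 795 ± 81.2 in H4WT (mean ± SD, n = 3). Nefl came next in each group, at 35.7 ± 0.898 CPM per kb in H4K91R, 36.6 ± 1.52 in H4K91Q and 39.2 ± 2.80 in H4WT.

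Ina stood at 33.1 ± 4.70 CPM per kb in H4K91R, where its libraries overlapped those of Nefl. It stood at 22.8 ± 1.83 CPM per kb in H4K91Q and 6.95 ± 1.88 in H4WT. Nes had 25.1 ± 1.52 CPM per kb in H4K91R, 19.4 ± 1.15 in H4K91Q and 27.3 ± 5.4 in H4WT, below Ina in both mutants and above it in H4WT. Nefm came after these in the mutants, at 13.6 ± 0.272 CPM per kb in H4K91R and 12.6 ± 0.842 in H4K91Q, and above Ina in H4WT, at 14.5 ± 1.02. With the union of annotated exons as length (5782 bases) Nefm was 9.26 ± 0.648 CPM per kb in H4WT and overlapped Ina there. Prph, Nefh and Gfap followed in that order in every group, none above 4.02 CPM per kb on average.

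Prph, the filament gene of peripheral and some central neurons, differed between the mutants, whose means lay on opposite sides of that of H4WT. Prph (Entrez 19132, chromosome 15, 99053579 to 99058978) measured 3.57, 3.54 and 5.42 CPM in H4K91R libraries, 6.43, 8.67 and 7.38 CPM in H4K91Q libraries and 4.57, 7.33 and 4.65 CPM in H4WT libraries. Every H4K91Q library lay above every H4K91R library, and H4WT overlapped both. The level in H4K91Q was 1.83-fold that in H4K91R (95% interval 1.31 to 2.54, log2 0.87 ± 0.22, edgeR adjusted p = 0.0404). Neither mutant passed the test against H4WT, at log2 -0.52 ± 0.23 in H4K91R (edgeR adjusted p = 0.0886) and 0.35 ± 0.21 in H4K91Q (edgeR adjusted p = 0.189). The difference between the mutants held in 12 of 18 alternatives. Leaving out H4K91R replicate 1 or 2 or any H4K91Q library ended it, at adjusted p values from 0.0564 to 0.167. Against H4WT, leaving out H4K91R replicate 3 gave -0.72 in H4K91R (edgeR adjusted p = 0.0303), and leaving out H4WT replicate 2 gave 0.69 in H4K91Q (edgeR adjusted p = 0.0286).

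Markers of peripheral, motor and sensory neurons were read beside Prph. Of 12 listed genes 9 were tested, and 7 rose in H4K91R and 6 in H4K91Q, with 0 down in each. Over all genes tested, 20.9% rose and 25.1% fell in H4K91R, and 22.5% rose and 23.8% fell in H4K91Q. Pou4f1, a transcription factor of sensory neurons, rose by 2.24 ± 0.19 on the log2 scale in H4K91R (edgeR adjusted p = 1.31e-06) and by 2.03 ± 0.19 in H4K91Q (3.4e-06). Tlx3, another sensory neuron factor, averaged 4.64 CPM in H4K91R, 3.64 CPM in H4K91Q and 0.394 CPM in H4WT. The summed level of the list was 99.8 to 132 CPM in H4K91R, 135 to 166 CPM in H4K91Q and 34 to 53.9 CPM in H4WT. Most of it came from Ntrk2, at 84.8 CPM in H4K91R, 109.6 CPM in H4K91Q and 26.5 CPM in H4WT on average. The sum therefore mostly follows that gene and does not stand for the list. Ntrk2 and Ntrk3 averaged higher in H4K91Q than in H4K91R, while Pou4f1 and Tlx3 averaged lower. None of the 9 tested genes passed the test between the mutants. The defining cholinergic enzyme Chat was at 0.079 CPM or less on average in each group. Pluripotency markers were set beside Prph after the values were seen and had the same order of groups. Nanog, Pou5f1, Zfp42 and Esrrb summed to 14.7 to 24.4 CPM in H4K91R, 82.3 to 134 CPM in H4K91Q and 32.2 to 56.1 CPM in H4WT. All 4 were higher in H4K91Q than in H4K91R, where 2.37% of all genes were. Of these 4, 3 fell in H4K91R and 4 rose in H4K91Q against H4WT. The median sum of astrocyte markers had that order too, at 503 CPM in H4K91R, 536 CPM in H4K91Q and 520.2 CPM in H4WT. So had that of endothelial markers, at 26.6 CPM in H4K91R, 31.7 CPM in H4K91Q and 30.8 CPM in H4WT. The part of any of these lists in the Prph values was not tested.

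Vim was lower in both mutants. Vim (Entrez 22352, chromosome 2, 13574311 to 13582826) measured 1250.2, 1131 and 1096 CPM in H4K91R libraries, 1079, 1097 and 1041 CPM in H4K91Q libraries and 1945, 1608 and 1677 CPM in H4WT libraries. All 6 mutant libraries lay below all H4WT libraries, and the mutants overlapped each other. Vim fell by 0.59 on the log2 scale in H4K91R (SE 0.081, edgeR adjusted p = 6.3e-05), to 0.665 of the H4WT level. It fell by 0.70 in H4K91Q (SE 0.081, edgeR adjusted p = 1.71e-05), to 0.615 of that level. Both calls held in all 18 alternatives, the smallest decreases being -0.40 in H4K91R and -0.53 in H4K91Q. The log2 difference of H4K91Q from H4K91R was -0.11 (95% interval -0.29 to 0.06, edgeR adjusted p = 0.437).

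Smooth muscle markers moved with Vim. All 6 listed genes fell in both mutants, with a median log2 difference of -3.18 in H4K91R and -3.46 in H4K91Q. They summed to 474 to 752 CPM in H4K91R, 438 to 496 CPM in H4K91Q and 3964 to 4756 CPM in H4WT. Acta2, smooth muscle actin, averaged 315 CPM in H4K91R, 245 CPM in H4K91Q and 2479 CPM in H4WT. Over all genes tested, 20.9% rose and 25.1% fell in H4K91R, and 22.5% rose and 23.8% fell in H4K91Q. Mesenchymal and fibroblast markers, of cells that also make vimentin, were called in both directions, as genes at large were. Of 10 genes 3 rose and 2 fell in H4K91R, and 4 rose and 2 fell in H4K91Q. With library size scaling 4 rose and 1 fell in H4K91R, and 7 rose and 2 fell in H4K91Q. Of all 14761 genes, that scaling gave 5031 up and 2013 down in H4K91R, and 5557 up and 2069 down in H4K91Q. Their sum was 6379 to 7255 CPM in H4K91R, 6768 to 7441 CPM in H4K91Q and 5807 to 6770.2 CPM in H4WT. The part of these cells in the Vim values was not tested, and in bulk RNA fewer cells of a type and less RNA per cell cannot be told apart.

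Nes passed the test in H4K91Q. Nes (Entrez 18008, chromosome 3, 87971093 to 87980451) measured 164, 151 and 146 CPM in H4K91R libraries, 118, 112 and 126 CPM in H4K91Q libraries and 205, 143 and 154 CPM in H4WT libraries. The H4K91Q libraries lay below all others, and H4K91R lay within the range of H4WT, which H4WT replicate 1 widens. Nes fell by 0.49 on the log2 scale in H4K91Q (SE 0.11, edgeR adjusted p = 0.00299), to 0.71 of the H4WT level (95% interval 0.60 to 0.84), and the call held in all 18 alternatives. In H4K91R the log2 difference was -0.12 ± 0.11 (edgeR adjusted p = 0.421), and it was 0.06 without H4WT replicate 1 and 0.07 with library size scaling. H4K91Q differed from H4K91R by -0.38 ± 0.11, with an edgeR adjusted p of 0.0722. Leaving out H4WT replicate 1 or 2, which are in neither group but share the estimate of the spread, gave adjusted p values of 0.0131 and 0.0376 for the same contrast. It also passed with the compared groups only (edgeR adjusted p = 0.0181), with no filter on low counts (0.0309) and in DESeq2 (adjusted p = 0.021). So whether the mutants differ in Nes depends on the setting.

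Other neural progenitor markers mostly rose. All 9 listed genes rose in H4K91R, with a median of 1.75, and 8 of 9 rose in H4K91Q, with a median of 1.42. Over all genes tested, 20.9% rose in H4K91R and 22.5% in H4K91Q. Fabp7, the brain lipid-binding protein made by radial glia, averaged 333 CPM in H4K91R, 231 CPM in H4K91Q and 44.7 CPM in H4WT. Sox2, a transcription factor of neural stem cells, averaged 48.2 CPM in H4K91R, 53.7 CPM in H4K91Q and 13.0 CPM in H4WT. The list summed to 583 to 677 CPM in H4K91R, 438 to 518 CPM in H4K91Q and 171 to 175 CPM in H4WT. Vim divided by Nes was 7.49 to 7.61 in H4K91R, 8.28 to 9.75 in H4K91Q and 9.47 to 11.2 in H4WT (both in CPM, exact two-sided permutation p = 0.1 for H4K91R and 0.2 for H4K91Q against H4WT). That ratio too was chosen after the values were seen.

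Gfap was close to the limit of detection. Gfap (Entrez 14580, chromosome 11, 102887336 to 102897200) had 3, 6 and 17 counts in H4K91R libraries, 16, 10 and 13 counts in H4K91Q libraries and 2, 10 and 1 counts in H4WT libraries. These are 0.173, 0.472 and 1.67 CPM in H4K91R, 0.686, 0.498 and 0.762 CPM in H4K91Q and 0.24, 0.37 and 0.122 CPM in H4WT. A level of 3 counts corresponds to 0.111 to 0.367 CPM, depending on the library, and H4WT replicates 1 and 3 were below that level. The log2 difference from H4WT was 1.17 ± 0.73 in H4K91R (95% interval -0.41 to 2.76, edgeR adjusted p = 0.211) and 1.12 ± 0.69 in H4K91Q (-0.36 to 2.60, edgeR adjusted p = 0.201). The H4K91Q libraries lay above all of H4WT, and H4K91R overlapped both. Neither difference passed the test at this depth, and H4K91R replicate 3 holds most counts of its group. The H4K91R value was 0.05 without that replicate, and 1.78 without H4K91R replicate 1 (edgeR adjusted p = 0.0336).

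Of 8 astrocyte markers 7 were tested, and 5 rose and 1 fell in H4K91R, while 4 rose and 0 fell in H4K91Q. Slc1a2, a glutamate transporter, averaged 18.2 CPM in H4K91R, 14.2 CPM in H4K91Q and 4.42 CPM in H4WT. Aqp4, the water channel of mature astrocytes, was at 0.221 CPM in H4K91R, 0.226 CPM in H4K91Q and 0.0895 CPM in H4WT on average. Aldh1l1, a folate enzyme of astrocytes picked after its values were seen, differed by -0.04 in H4K91R and -0.11 in H4K91Q on the log2 scale and did not pass the test. The summed level of the list was 479 to 510.4 CPM in H4K91R, 505 to 553 CPM in H4K91Q and 518 to 539 CPM in H4WT, most of it from the gap junction gene Gja1. Sox10, a defining factor of oligodendrocyte lineage cells, had 0 to 3 counts per library. Of 5 tested oligodendrocyte markers 3 rose and 1 fell in each mutant. Of 4 endothelial markers 1 rose and 1 fell in H4K91R, and 2 rose and 1 fell in H4K91Q. Beside these short lists, the shares over all genes tested were 20.9% up and 25.1% down in H4K91R. In H4K91Q those shares were 22.5% up and 23.8% down.

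Over all genes tested, 20.9% rose in H4K91R and 22.5% in H4K91Q. All 11 listed neuron markers rose in both mutants, with a median log2 difference of 2.05 in H4K91R and 1.70 in H4K91Q. Their sum was 1041 to 1295 CPM in H4K91R, 823 to 887 CPM in H4K91Q and 246 to 335 CPM in H4WT. The smallest difference, picked after the values were seen, was that of Syt1, a synaptic vesicle protein, at 1.10 in H4K91R and 0.52 in H4K91Q. Ina lay inside the range of the list in both mutants, and the upper interval bounds of Nefl (0.02 in H4K91R and 0.05 in H4K91Q) and Nefm (0.08 in H4K91R and -0.04 in H4K91Q) lay below the value of Syt1. The interval of the scarce Nefh lay below the value of Syt1 in H4K91R (upper bound 0.66) and held it in H4K91Q (upper bound 0.68). These bounds were set beside the Syt1 value without its own error, and the difference from Syt1 was not tested. Map2, a microtubule-associated protein of dendrites, averaged 221 CPM in H4K91R, 154 CPM in H4K91Q and 43.4 CPM in H4WT. Nefl divided by Map2, both in CPM, was 0.497 to 0.605 in H4K91R, 0.749 to 0.898 in H4K91Q and 2.58 to 3.59 in H4WT. The ratio was lower in every mutant library, by 2.49 on the log2 scale in H4K91R and by 1.94 in H4K91Q (exact two-sided permutation p = 0.1 for each, the smallest possible, adjusted 0.12). This ratio and the next were chosen after the values were seen. They restate the steady Nefl and the rise of the neuron markers, and are no separate support. Nefl divided by Tubb3, the neuronal beta-tubulin, was 0.512 to 0.708 in H4K91R, 0.843 to 0.971 in H4K91Q and 1.68 to 2.29 in H4WT.

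**Figure D4:**
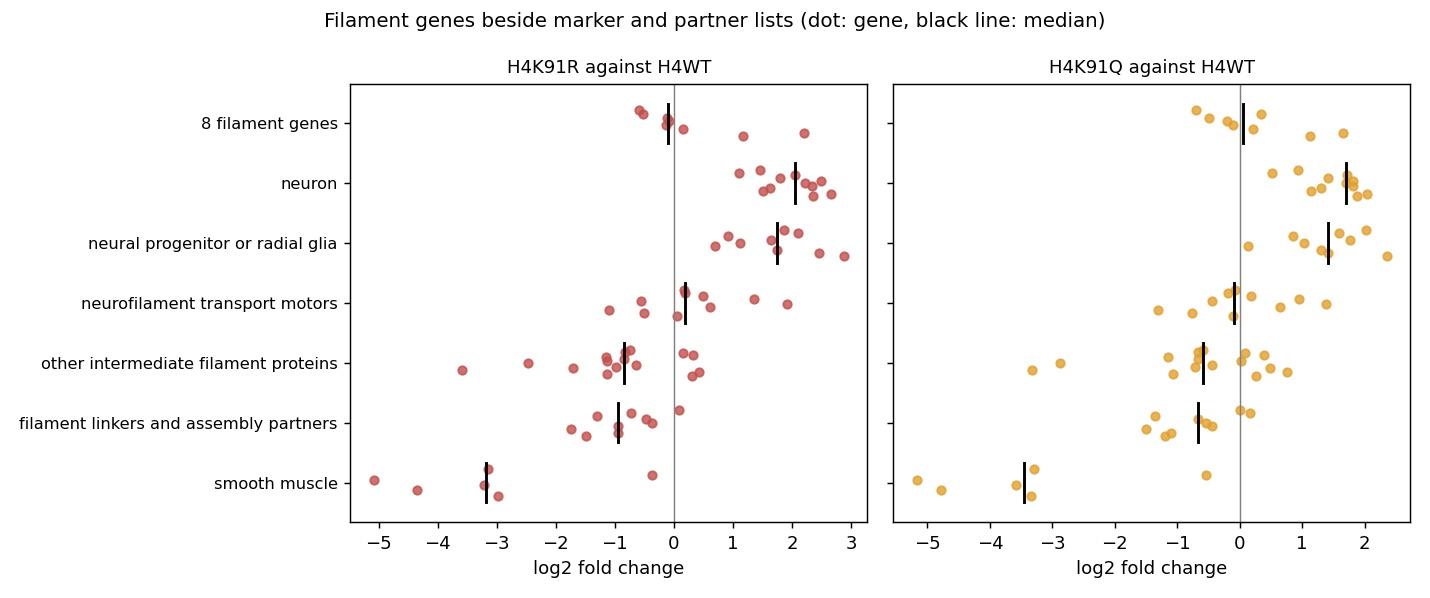
Log2 fold change against H4WT of each tested gene in the 8 filament genes and 6 lists, for H4K91R (left) and H4K91Q (right); dots are genes and black lines list medians. The neuron and progenitor lists lie to the right (medians 2.05 and 1.75 in H4K91R), the smooth muscle list to the left (-3.18), and the filament genes spread from Vim at -0.59 to Ina at 2.20.

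Other intermediate filament genes were mostly lower. Of 18 listed genes 15 were tested, and 10 fell and 1 rose in H4K91R, with a median log2 difference of -0.84. In H4K91Q 9 fell and 2 rose, with a median of -0.58. Library size scaling gave 10 down and 3 up in H4K91R and 7 down and 3 up in H4K91Q. Over all genes tested, for this list and the 4 that follow, 20.9% rose and 25.1% fell in H4K91R, and 22.5% rose and 23.8% fell in H4K91Q. Those shares are with TMM. With library size scaling 5031 of 14761 genes rose and 2013 fell in H4K91R, and 5557 rose and 2069 fell in H4K91Q. Lmna, the A-type lamin of the nuclear envelope, fell by 1.15 ± 0.099 on the log2 scale in H4K91R (edgeR adjusted p = 1.25e-06) and by 1.14 ± 0.098 in H4K91Q (1.95e-06). Its B-type counterpart Lmnb1 rose by 0.32 in H4K91R (edgeR adjusted p = 0.00123) and by 0.39 in H4K91Q (0.000338), and was picked after its values were seen as the gene that rose in both. Krt18 and Krt8, which pair in simple epithelia, fell by 0.98 and 0.84 in H4K91R and by 0.71 and 0.66 in H4K91Q. Krt20, a keratin of gut and bladder epithelium, averaged 0.791 CPM in H4K91R, 0.607 CPM in H4K91Q and 4.65 CPM in H4WT. The epithelial markers, which hold Krt8 and Krt18 too, had 3 of 4 genes down in each mutant, and summed to 679 to 766 CPM in H4K91R, 748 to 864 CPM in H4K91Q and 1116 to 1242 CPM in H4WT.

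Of 9 tested genes for proteins that link intermediate filaments to other structures or help assemble them, 7 fell in H4K91R and 6 in H4K91Q, with 0 up in either and medians of -0.95 in H4K91R and -0.67 in H4K91Q. With library size scaling 4 fell in H4K91R and 6 in H4K91Q, with 0 up in either. Plec, the cytolinker plectin, averaged 144 CPM in H4K91R, 139 CPM in H4K91Q and 358 CPM in H4WT. Dsp, desmoplakin of desmosomes, fell by 1.49 ± 0.12 in H4K91R (edgeR adjusted p = 1.02e-06) and by 1.20 ± 0.12 in H4K91Q (5.58e-06), and Eppk1, epiplakin, fell by 1.74 ± 0.27 in H4K91R (0.000173). Dst, dystonin, which links filaments to adhesions and microtubules, averaged 142 CPM in H4K91R, 128 CPM in H4K91Q and 277 CPM in H4WT.

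Of 10 genes for motors that carry neurofilaments along axons, 4 rose and 3 fell in each mutant. With library size scaling 7 rose and 2 fell in H4K91R, and 4 rose and 3 fell in H4K91Q. Kif5a, a neuronal kinesin heavy chain, averaged 54.0 CPM in H4K91R, 37.3 CPM in H4K91Q and 14.0 CPM in H4WT, and Kif5c, another neuronal form, averaged 163 CPM in H4K91R, 123 CPM in H4K91Q and 63.7 CPM in H4WT. Kif3a, a kinesin-II motor, rose by 0.62 ± 0.069 in H4K91R (edgeR adjusted p = 1.06e-05) and by 0.65 ± 0.068 in H4K91Q (7.72e-06). Kif5b, the ubiquitous heavy chain, is named beside its relatives after its values were seen, and fell by 0.55 in H4K91R (edgeR adjusted p = 1.61e-05) and by 0.45 in H4K91Q (0.000102).

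Among 17 kinases and phosphatases that act on intermediate filaments, 7 rose and 4 fell in H4K91R and 5 rose and 3 fell in H4K91Q. In H4K91Q both shares lay near those of all genes, 22.5% and 23.8%. The 3 with the smallest adjusted p in each mutant included both neuronal activators of the neurofilament kinase Cdk5. Cdk5r1, which encodes p35, averaged 48.0 CPM in H4K91R, 33.4 CPM in H4K91Q and 8.41 CPM in H4WT (edgeR adjusted p = 2.6e-07 for H4K91R and 2.09e-06 for H4K91Q). Cdk5r2, which encodes p39, rose by 2.15 ± 0.17 in H4K91R and by 1.59 ± 0.17 in H4K91Q, and Mapk10, the neuronal Jun kinase, rose by 2.36 ± 0.17 in H4K91R and by 1.84 ± 0.17 in H4K91Q. Library size scaling gave 12 up and 2 down in H4K91R and 11 up and 2 down in H4K91Q for this list. That scaling also moved genes at large upward, as given above.

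Of 10 genes for filament turnover and messenger RNA control, 2 rose and 3 fell in each mutant. Library size scaling gave 4 up and 3 down in H4K91R and 4 up and 2 down in H4K91Q. Arhgef28, an exchange factor that binds Nefl messenger RNA, fell by 1.04 ± 0.095 in H4K91R (edgeR adjusted p = 2.15e-06) and by 1.25 ± 0.095 in H4K91Q (8.4e-07). Capn2, a calpain protease, averaged 181 CPM in H4K91R, 177 CPM in H4K91Q and 352 CPM in H4WT. Trim2, a ubiquitin ligase that binds the neurofilament light chain, rose by 1.04 ± 0.10 in H4K91R (edgeR adjusted p = 4.14e-06) and by 0.88 ± 0.10 in H4K91Q (1.89e-05). Under both other scalings 0 of the genes called in any of these lists changed direction.

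Genes with a profile most like each filament gene were found among 11295 genes, by the root mean square difference of log2 CPM over the 9 libraries after each gene's own mean was taken away. The 3 closest to Ina were Mapt, which encodes the microtubule-associated protein tau, at 0.0628, Chrnb2, a nicotinic receptor subunit, at 0.0708, and Mapk8ip2, a scaffold of Jun kinases, at 0.0734. Mapt averaged 170.4 CPM in H4K91R, 119 CPM in H4K91Q and 36.0 CPM in H4WT, and it is also on the neuron list. Among the closest to Vim were Ilk, the integrin-linked kinase, at 0.0494, and Slc39a6, a zinc transporter, at 0.0571. Closest to Prph were Isg15, an interferon-induced ubiquitin-like protein, at 0.132, L1td1, an RNA-binding protein of pluripotent cells, at 0.175, and Psmb8, an immunoproteasome subunit, at 0.191.

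The closest match to Nefl was Sptlc1, a subunit of serine palmitoyltransferase, at 0.0417, and that to Nefm was Ap1ar, an adaptor regulator, at 0.0468. Tmub1 for Nefh, at 0.102, and Det1 for Nes, at 0.105, were less close, and Syt13, a synaptotagmin, for Gfap was far, at 0.451. Among the 8 genes themselves the closest pairs were Nefl with Nefm, at 0.116, Nefm with Nes, at 0.181, and Nes with Vim, at 0.213. Ina was 0.80 to 1.29 from each of the other 7. Flat profiles lie close to many genes, so these distances describe shape and amplitude together.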

How the data were processed

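The authors deposited 1 table of expected counts in whole numbers, for which Salmon 0.8.2, DESeq2 and the build mm10 are named, per the submitters' processing notes. The sources used here do not give their roles, the annotation, the strand setting or any rounding. The table held 24100 Entrez IDs, of which 24045 matched a symbol in the RefSeq table for GRCm38.p6, the source of coordinates and promoters. Exons came from GENCODE M21 on the same build. The 8 genes and 15 gene lists were chosen with earlier results of these data known, so no pattern here is independent support for one seen before.

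In edgeR 4.0.16 (R 4.3.3), filterByExpr (minimum count 10) kept 14761 genes, and TMM factors were 0.911 to 1.06. The quasi-likelihood fit took in all 9 libraries with a mean for each group, and two-sided tests were Benjamini-Hochberg adjusted over all 14761 genes with a threshold of 0.05. The biological coefficient of variation was 8.82%. The test was checked on simulated counts in which a small set of genes changed, in H4K91R only. Such counts do not probe the choice of scaling where as many genes differ as here. SE is the size of the log2 fold change divided by the root of F. A level of 3 counts is 0.111 to 0.367 CPM, and such limits cover counting error only. Replicates differed by more than sampling noise, with a chi-square per degree of freedom of 4.08 to 11.4.

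Alternatives were relative log expression (RLE) and library size scaling, no filter, at least 1 CPM in 3 libraries, the replicate number as a block, compared groups only, thinning to equal totals, limma-voom (limma 3.58.1), DESeq2 1.42.0 and leaving out each library. Same-numbered libraries of H4K91Q and H4WT deviated together (correlations 0.141 to 0.198 across genes), while those of the other pairs of groups did not in every pair. The labels do not say what the number stands for. All 8 genes are named, with up to 3 called genes of each list per mutant with the smallest adjusted p and a mean of at least 1 CPM, and the 3 genes most like each filament gene among those with a mean of at least 5 CPM. One gene that this rule names is not reported here. List genes named outside this rule were chosen after their values were seen. A list gene called absent or near 0 is a defining marker. At most 0.581% of the 31-base stretches of a filament gene are shared with another gene on the same strand.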

Additional observations from a re-analysis of the deposited data

Results flagged for a closer look

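Of the 8 genes, 2 passed the test between the mutants, 1 higher and 1 lower in H4K91Q. Over all genes tested 2.37% were higher and 2.78% lower. Ina differed in H4K91Q from H4K91R by -0.54 on the log2 scale (73.8 ± 5.94 CPM in H4K91Q and 107 ± 15.4 CPM in H4K91R, SD, n = 3 each, edgeR adjusted p = 0.0492). Every H4K91Q library lay below every H4K91R library. Prph was higher in H4K91Q than in H4K91R by 0.87 (7.49 ± 1.12 CPM in H4K91Q and 4.17 ± 1.08 CPM in H4K91R, edgeR adjusted p = 0.0404), with every H4K91Q library above every H4K91R library. Both calls lay close to the threshold, and held in 11 of 18 alternatives for Ina and 12 of 18 for Prph. Over their alternatives the adjusted p ranged from 0.00613 to 0.174 for Ina and from 0.0139 to 0.167 for Prph.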

How the results depend on the processing

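Ina and Vim in both mutants and Nes in H4K91Q kept their direction and their call in all 18 alternatives. Between H4K91Q and H4K91R the number of the 8 genes called was 2, and 0 after thinning to equal totals. Over all genes tested that contrast called 350 up and 411 down, and 266 up and 281 down after thinning. Leaving out single libraries gave 2 to 3 of the 8 genes called in H4K91R, 3 to 5 in H4K91Q, 0 to 3 between the mutants and 3 to 4 in the joint test. Over all genes the same fits called 2681 to 3086 up and 3170 to 3754 down in H4K91R. In H4K91Q they called 2768 to 3369 up and 3050 to 3592 down. Between the mutants 0 were called without H4K91R replicate 2 or without any 1 of the H4K91Q libraries, and 1 without H4K91R replicate 1, H4K91R replicate 3 or H4WT replicate 3. The calls over all genes changed as well, to 120 up and 68 down without H4K91R replicate 2. Without H4K91Q replicate 1 they were 200 and 98, without replicate 2 110 and 92, and without replicate 3 543 and 550.

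Values that changed sign were all uncalled, and the cause was not tested. Library size scaling gave 0.05 for Nefl, 0.10 for Nefm and 0.07 for Nes in H4K91R, and 0.07 for Nefl in H4K91Q. With single libraries left out Nes in H4K91R ran from -0.22 to 0.06, the last without H4WT replicate 1. Between the mutants Nefl was 0 (rounded) without H4K91Q replicate 2, and Nefh ran from -0.08 (without H4K91R replicate 1) to 0.15, with -0.06 without H4K91Q replicate 2. Gfap between the mutants was 0.42 in limma-voom, and with single libraries left out it ran from -0.66 to 1.08 (without H4K91R replicate 3), with 0.09 without H4K91Q replicate 2. Gfap had no value under the stricter filter, under thinning, or with H4K91R and H4WT or H4K91Q and H4WT alone.

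With the replicate block 2 of the 8 genes were called in H4K91R, 3 in H4K91Q, 3 between the mutants and 4 in the joint test. Over all genes it called 3107 up and 3644 down in H4K91R, and 3344 up and 3496 down in H4K91Q. Between the mutants it called 448 up and 563 down. The block ended the call of Nefm in H4K91Q (edgeR adjusted p = 0.0592) and made one of Nes between the mutants (0.0352), and it changed no other call of the 8 genes. Same-numbered libraries correlated from -0.163 to 0.198 in deviations from group means, over 0.1 in 5 of 9 pairs. Each library correlated best with its own number in 6 of 6 libraries of H4K91Q and H4WT, in 2 of 6 of H4K91R and H4WT and in 2 of 6 of the mutants, a hint from the data and not the design. Counts below 20 limit Gfap, and depth limits Nefh.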
